A study of Mus musculus with 11 samples.

Results

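The genes described here are 9 regulators of the forebrain and eye field, Hesx1, Six3, Six6, Rax, Lhx2, Lhx5, Emx2, Fezf1 and Fezf2, and the data are the ChIP-seq peaks that 5 transcription factors (TFs) formed around them in mouse epiblast stem cells (EpiSCs). All peaks with a midpoint in the gene body or within 50 kb on either side were taken from 10 peak lists, 1 for each of ZIC2, OTX2, SOX2, POU5F1 and POU3F1 in each of 2 cultures. In total, 532 of 1004445 peaks lay in these 9 windows, 251 in the EpiSC lists and 281 in the activin-free lists. EpiSCs are pluripotent cells that correspond to the post-implantation epiblast, and the cells were of strain 129/Sv with no genetic change named in the labels. They were kept in medium with activin (20 ng/ml) and Fgf2 (10 ng/ml), and the activin-free culture had been without activin for 18 h. In both cultures the TF was added by transient transfection of a constitutive pCAGGS vector. The vector gave the TF a C-terminal BLRP sequence, which the co-expressed ligase BirA biotinylates, so the chromatin recovered on streptavidin was that of the added protein and not of the endogenous one. Each TF was profiled in 1 library per culture. No value therefore has a replicate error, no difference between cultures could be tested, and the intervals given are 95% Wilson intervals that cover counting error only.

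The peaks were called by MACS1.4 on genome build mm9, and the score of a peak is its p-value as -10 log10, so that the lowest score listed was 50. Scores depend on read depth, which is unknown because the lists hold no reads. The lists held between 62457 peaks (EpiSC POU5F1) and 126908 peaks (activin-free POU5F1). Each TF had a peak of score 3100 over its own gene in both of its lists, which is where its vector would give reads, and none of the 9 genes was carried on a vector. That score was not particular to a TF's own gene. ZIC2 peaks also had it over Sox2 and Pou3f1 in EpiSCs, and over Pou5f1 and Pou3f1 without activin. It was shared by 4 activin-free POU5F1 peaks around the 9 genes, so it does not rank the highest peaks.

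Gene positions on mm9 were taken from GENCODE vM1. Hesx1 is on chromosome 14 from 27813548 to 27815515, and Fezf2 is on the same chromosome from 13174406 to 13178379. Six3 is on chromosome 17 from 86012948 to 86031153, Six6 on chromosome 12 from 74040932 to 74045886, and Rax on chromosome 18 from 66094293 to 66098743. Lhx2 is on chromosome 2 from 38194801 to 38225253, Lhx5 on chromosome 5 from 120881895 to 120891466, Emx2 on chromosome 19 from 59533180 to 59539847, and Fezf1 on chromosome 6 from 23195047 to 23198264. Rax, Fezf1 and Fezf2 are transcribed from the minus strand. The windows of Six3, Lhx2 and Emx2 held no other protein-coding gene, whereas those of Rax and Lhx5 held 3 others each. Of the 251 EpiSC peaks, 170 (67.7%) were nearer to the start of the named gene than to that of any other protein-coding gene, as were 189 of the 281 activin-free peaks (67.3%).

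As background, the vertebrate forebrain arises from the anterior neural plate, and a group of homeodomain proteins in its middle marks the eye field before the optic vesicles grow out. SIX3, SIX6, RAX and LHX2 belong to this group, HESX1 is a homeodomain repressor needed for the forebrain and pituitary, LHX5 is a LIM homeodomain protein of the anterior neural plate, EMX2 patterns the dorsal telencephalon, and FEZF1 and FEZF2 are zinc-finger repressors of forebrain progenitors. The paper states that EpiSCs deprived of activin/Nodal signalling develop toward the anterior neural plate. Expression was not measured here, so whether any of these genes was active in either culture is not known. ZIC2 is a zinc-finger TF that binds GC-rich sequence, OTX2 is a homeodomain TF required for head development, SOX2 is an HMG-box TF, and POU5F1 and POU3F1 are POU-domain TFs that bind the octamer sequence.

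For each gene the EpiSC site at which most TFs overlapped was examined, and 200 bases around the midpoint of its highest-scoring peak were read from mm9, plus strand, without bases in annotated untranslated regions. By their highest-scoring peak, these sites were ZIC2-centered or POU5F1-centered. The Six6 site joined 4 TFs and every other site 2. At every gene but Rax, between 2 and 9 sites had as many TFs, and the largest summed score decided among them. Which center a gene received thus depends on that rule. The ZIC2-centered sites of Six3, Fezf1 and Lhx5 are shown because their letters can be set against the GC content of ZIC2 peaks, of which the median was 56.5% near the 9 genes and 55% in the EpiSC list. Six3 and Fezf1 lay above both values and Lhx5 below. They lie at chr17:86013842-86014041 (62% GC, in Six3 near its start), chr6:23198745-23198944 (58.0% GC, just upstream of Fezf1) and chr5:120908007-120908194 (47.9% GC, 26 kb downstream of the Lhx5 start and nearest to Sdsl). None of the 3 contains CCTGCTG, the ZIC letters searched on both strands, so they hold no capitals. The site of Hesx1, chr14:27783542-27783640 (69.7% GC), lies over the first exon of the neighbor Appl1 and not at Hesx1.
Six3, ZIC2: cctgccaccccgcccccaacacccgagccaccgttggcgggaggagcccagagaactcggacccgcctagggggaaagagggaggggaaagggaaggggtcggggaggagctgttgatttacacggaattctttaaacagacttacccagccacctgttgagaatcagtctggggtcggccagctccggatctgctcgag
Fezf1, ZIC2: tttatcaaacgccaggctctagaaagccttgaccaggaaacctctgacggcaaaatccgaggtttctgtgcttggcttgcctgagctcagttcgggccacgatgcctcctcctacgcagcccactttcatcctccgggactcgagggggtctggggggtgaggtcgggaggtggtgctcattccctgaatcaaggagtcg
Lhx5, ZIC2: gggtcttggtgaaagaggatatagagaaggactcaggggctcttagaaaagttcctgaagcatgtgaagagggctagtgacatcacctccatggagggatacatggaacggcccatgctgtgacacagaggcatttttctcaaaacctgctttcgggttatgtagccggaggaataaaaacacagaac
Hesx1 window, Appl1 exon, ZIC2: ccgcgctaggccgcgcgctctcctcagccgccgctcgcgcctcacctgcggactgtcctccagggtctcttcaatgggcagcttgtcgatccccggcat

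The POU5F1-centered sites of Lhx2 (chr2:38263876-38264075, 69 kb downstream of the start) and Fezf2 (chr14:13191548-13191747, 13 kb upstream of the start) are shown because both hold long stretches in which purines and pyrimidines alternate. Capitals mark such stretches of 20 bp or more, of 28 and 21 bp at Lhx2 and of 57, 26 and 22 bp at Fezf2.
Lhx2, POU5F1: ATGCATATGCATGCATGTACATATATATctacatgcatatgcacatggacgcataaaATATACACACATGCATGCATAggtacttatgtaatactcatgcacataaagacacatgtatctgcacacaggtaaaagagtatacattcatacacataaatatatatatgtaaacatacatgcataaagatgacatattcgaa
Fezf2, POU5F1: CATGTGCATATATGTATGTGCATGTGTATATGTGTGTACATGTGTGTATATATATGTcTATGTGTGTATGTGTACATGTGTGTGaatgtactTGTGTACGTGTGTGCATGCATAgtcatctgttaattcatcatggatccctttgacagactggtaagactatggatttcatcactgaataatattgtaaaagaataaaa
The site of Six6, chr12:74044404-74044603, lies in its last exon, in the untranslated part, and holds 2 such stretches, the longer of 59 bp. Its letters and those of Emx2, also untranslated, are not printed.

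The 2 sequences below are those of the highest-scoring activin-free peaks of OTX2 and SOX2 around the 9 genes. The OTX2 peak lies at the Hesx1 start, chr14:27813397-27813547, and capitals mark GATTA, the core that OTX proteins bind, at bases 17 to 21 and 63 to 67 counted from the first base. The printed stretch held no GGATTA and no GGTAAT. The SOX2 peak lies 7.8 kb downstream of the Fezf2 start, chr14:13170485-13170684, and capitals mark ACAAAA and, on the other strand, ACAAAG.
Hesx1 promoter, OTX2: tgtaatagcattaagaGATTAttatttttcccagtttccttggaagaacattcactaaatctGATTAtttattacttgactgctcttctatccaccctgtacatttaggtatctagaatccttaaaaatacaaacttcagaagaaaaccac
Fezf2 downstream, SOX2: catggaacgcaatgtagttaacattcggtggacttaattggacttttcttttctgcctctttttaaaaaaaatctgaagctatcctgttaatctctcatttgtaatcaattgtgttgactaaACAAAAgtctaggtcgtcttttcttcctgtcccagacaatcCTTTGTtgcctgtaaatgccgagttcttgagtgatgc

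ZIC2 and OTX2 formed most of the peaks around the forebrain and eye field genes. In EpiSCs, the 9 windows held 106 ZIC2, 70 OTX2, 19 SOX2, 33 POU5F1 and 23 POU3F1 peaks, so that 70.1% of all peaks were of ZIC2 or OTX2, compared with 48.5% over the whole lists. In the activin-free culture there were 98 ZIC2, 73 OTX2, 26 SOX2, 63 POU5F1 and 21 POU3F1 peaks, and the share of ZIC2 and OTX2 was 60.9%, compared with 41.3% over the whole lists. The whole lists include peaks far from genes. Over the windows of all protein-coding genes, the median EpiSC counts in this order were 9, 8, 2, 2 and 0. Those of the 9 genes were 8, 7, 2, 3 and 1. Without activin the medians were 8, 7, 3, 4 and 1, beside 11, 6, 2, 5 and 1 for the 9 genes. By median count, the 9 genes thus exceeded other genes in ZIC2 only without activin and in OTX2 in neither culture. These counts do not allow for window length, which grows with the gene. Per 100 kb of window, the EpiSC medians of the 9 genes were 7.66 for ZIC2 and 6.39 for OTX2, against 6.80 and 6.21 for all genes. Without activin they were 10.3 and 5.62, against 5.86 and 5.72. By median density, ZIC2 was thus higher in both cultures, and OTX2 slightly higher in EpiSCs only. The lower share of ZIC2 and OTX2 without activin went together with the larger number of POU5F1 peaks. It was not lower among the 50000 highest scores of each list. There the windows held 49 ZIC2, 35 OTX2, 15 SOX2, 28 POU5F1 and 11 POU3F1 peaks in EpiSCs, and 55, 36, 19, 26 and 8 without activin.

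**Figure D1:**
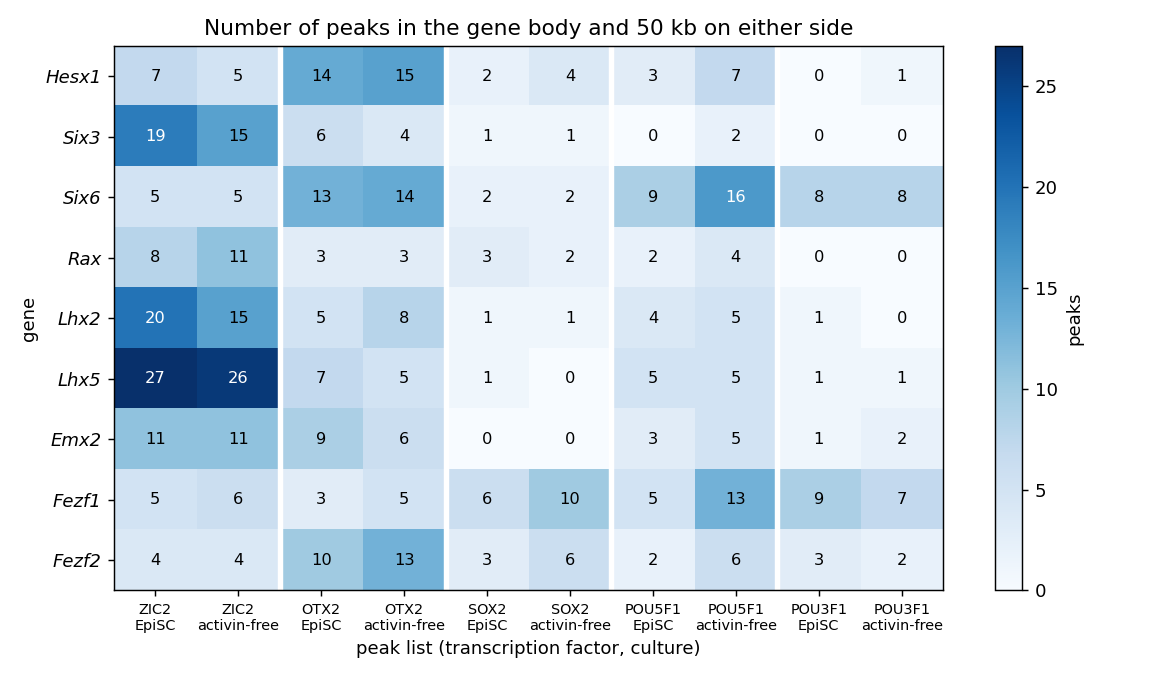
Number of peaks with a midpoint in the gene body or 50 kb on either side, for each of the 9 genes (rows) in each peak list (columns, 1 library each). ZIC2 was densest at Lhx5 (27 EpiSC and 26 activin-free peaks), whereas POU3F1 peaks were concentrated at Six6 and Fezf1.

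ZIC2 and OTX2 peaks were present in the windows of all 9 genes in both cultures. This says little about these genes, because the windows of 93.1% (ZIC2) and 93.3% (OTX2) of 22367 protein-coding genes held such peaks in EpiSCs, and 92.3% and 95.6% without activin. SOX2 peaks were found at 8 of 9 genes in EpiSCs (75.0% of all genes) and at 7 of 9 without activin (85.6%). Emx2 had no SOX2 peak in either culture, and the single one of Lhx5, with a score of 66.7, was listed only in EpiSCs. POU5F1 peaks were found at 8 of 9 genes in EpiSCs (77.3% of all genes), the exception being Six3, and at 9 of 9 without activin (89.5%). POU3F1 peaks were found at 6 of 9 genes in both cultures, against 47.8% and 53.0% of all genes. Six3 and Rax had none in either list. These counts depended on low-scoring peaks. At a score of at least 100, 4 of 9 genes had an EpiSC SOX2 peak, against 52.7% of all genes. Among the 50000 highest scores of each list, 3 of 9 genes had a POU3F1 peak in both cultures, against 30.5% and 33.5% of all genes.

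The numbers of peaks differed widely between the genes. For the eye field gene Six3, a repressor of posterior fate in the forebrain, 19 ZIC2 and 6 OTX2 peaks were listed in EpiSCs, with 1 SOX2 peak and no POU5F1 or POU3F1 peak. Without activin the numbers were 15, 4 and 1, and 2 POU5F1 peaks of scores 59.0 and 54.3 were added. ZIC2 therefore provided 19 of 26 Six3 peaks in EpiSCs. The highest EpiSC peak was in an intron, 3.8 kb downstream of the start, with a score of 1512 in EpiSCs and 1524 without activin. The highest activin-free peak, 32 kb downstream of the start, scored 1922, and 1101 in EpiSCs. Where EpiSCs had a single peak of 3050 bp 9.0 kb from the start, with a score of 1063, the activin-free list had 2 peaks, with scores of 291.3 and 717.2.

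Lhx2 and Lhx5, the LIM homeodomain genes, resembled Six3 in that most of their peaks were of ZIC2 in both cultures. At Lhx2, which acts in optic vesicle and cortex, there were 20 ZIC2, 5 OTX2, 1 SOX2, 4 POU5F1 and 1 POU3F1 peaks in EpiSCs, and 15, 8, 1, 5 and 0 without activin. At Lhx5 there were 27, 7, 1, 5 and 1 in EpiSCs, and 26, 5, 0, 5 and 1 without activin. The EpiSC ZIC2 density at Lhx5, 24.6 peaks per 100 kb, was higher than that of 91.5% of protein-coding genes, and ZIC2 peaks covered 34.0% of its window. Six3 and Lhx2 stood less high, with densities above those of 76.3% and 74.6% of genes in EpiSCs and 72.1% and 69.3% without activin. Of the 27 EpiSC ZIC2 peaks of Lhx5, 13 were nearest to the Lhx5 start, and the others lay nearer to neighbors such as Sdsl. The windows of Lhx5 (51.1% GC), Six3 (48.5%) and Lhx2 (46.6%) were more GC-rich than the median window of protein-coding genes (44.3%), and the part of base composition in the ZIC2 numbers was not tested.

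At Hesx1, Six6 and Fezf2, OTX2 peaks instead outnumbered ZIC2 peaks in both cultures. Hesx1 had 14 OTX2 peaks in EpiSCs and 15 without activin, higher densities than those of 90.9% and 97.2% of genes. Six6, an eye and hypothalamus regulator related to Six3, had 13 and 14, and Fezf2, which specifies subcortical projection neurons, had 10 and 13. Of the Six6 OTX2 peaks, only 3 in each culture were nearest to the Six6 start, whereas 9 and 13 of those at Fezf2 were nearest to Fezf2. ZIC2 was less frequent at these genes, with 7 and 5 peaks at Hesx1, 5 and 5 at Six6, and 4 and 4 at Fezf2. None of the 7 EpiSC ZIC2 peaks of the Hesx1 window was nearest to Hesx1. The highest ZIC2 peak of all 9 windows, with a score of 2136 in EpiSCs and 3100 without activin, belonged to this window but lay 0.51 kb from the start of Il17rd in EpiSCs. The 14 EpiSC OTX2 peaks of Hesx1 were spread from 33 kb upstream to 52 kb downstream, and 6 of them were nearest to Hesx1. Among these were the highest EpiSC OTX2 peak of the 9 windows, 6.4 kb upstream (chr14:27806438-27807944) with a score of 460, and a peak 5.9 kb downstream with a score of 366.9. Their scores without activin were 430.1 and 457.3.

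The 2 genes with many POU-factor peaks were Six6 and Fezf1. At Six6 there were 9 POU5F1 and 8 POU3F1 peaks in EpiSCs, and 16 and 8 without activin. Of these, 5 and 6 in EpiSCs, and 10 and 6 without activin, were nearest to the Six6 start. The POU5F1 density of the Six6 window exceeded that of 99.4% of protein-coding genes in EpiSCs and 99.5% without activin. Fezf1, which acts in the diencephalon and olfactory system, had 5 ZIC2, 3 OTX2, 6 SOX2, 5 POU5F1 and 9 POU3F1 peaks in EpiSCs, and 6, 5, 10, 13 and 7 without activin. It was the gene with the smallest share of ZIC2 and OTX2 peaks, 28.6% in EpiSCs and 26.8% without activin, and its SOX2 density exceeded that of 94.0% and 98.5% of genes. The windows of Six6 (41.0% GC) and Fezf1 (41.1%) were the most AT-rich of the 9. All 5 EpiSC POU3F1 peaks wider than 2000 bp lay at these 2 genes, with widths of 7218, 3083 and 2814 bp at Six6 and 2123 and 2080 bp at Fezf1. In the whole EpiSC POU3F1 list, 13.2% of peaks had such widths.

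All 8 POU3F1 peaks of Six6 were listed in both cultures. From upstream to downstream, their EpiSC scores were 157.4, 1361, 309.9, 1884, 551.4, 399.7, 828.1 and 302.3, and their activin-free scores were 139, 2066, 160.9, 1641, 1014, 1082, 280.7 and 872.7. The peaks 41 kb, 24 kb and 17 kb upstream and the one 35 kb downstream thus had the higher score without activin, and the other 4 had it in EpiSCs. Both cultures had their highest scores in the broad peaks 41 kb and 29 kb upstream, although without activin the order of the 2 was exchanged. The peak over the last exon showed the largest fall, with an activin-free to EpiSC ratio of 0.339.

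Rax and Emx2 had intermediate numbers of ZIC2 peaks. Rax, the retinal homeobox gene, had 8 ZIC2, 3 OTX2, 3 SOX2 and 2 POU5F1 peaks in EpiSCs, and 11, 3, 2 and 4 without activin. It held the highest EpiSC SOX2 peak of the 9 windows, 2.3 kb upstream of the start, with a score of 492.6 in EpiSCs and 543 without activin. Emx2 had 11 ZIC2, 9 OTX2, 3 POU5F1 and 1 POU3F1 peaks in EpiSCs, and 11, 6, 5 and 2 without activin. All ZIC2 and OTX2 peaks of Emx2 were nearest to its own start.

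**Figure D2:**
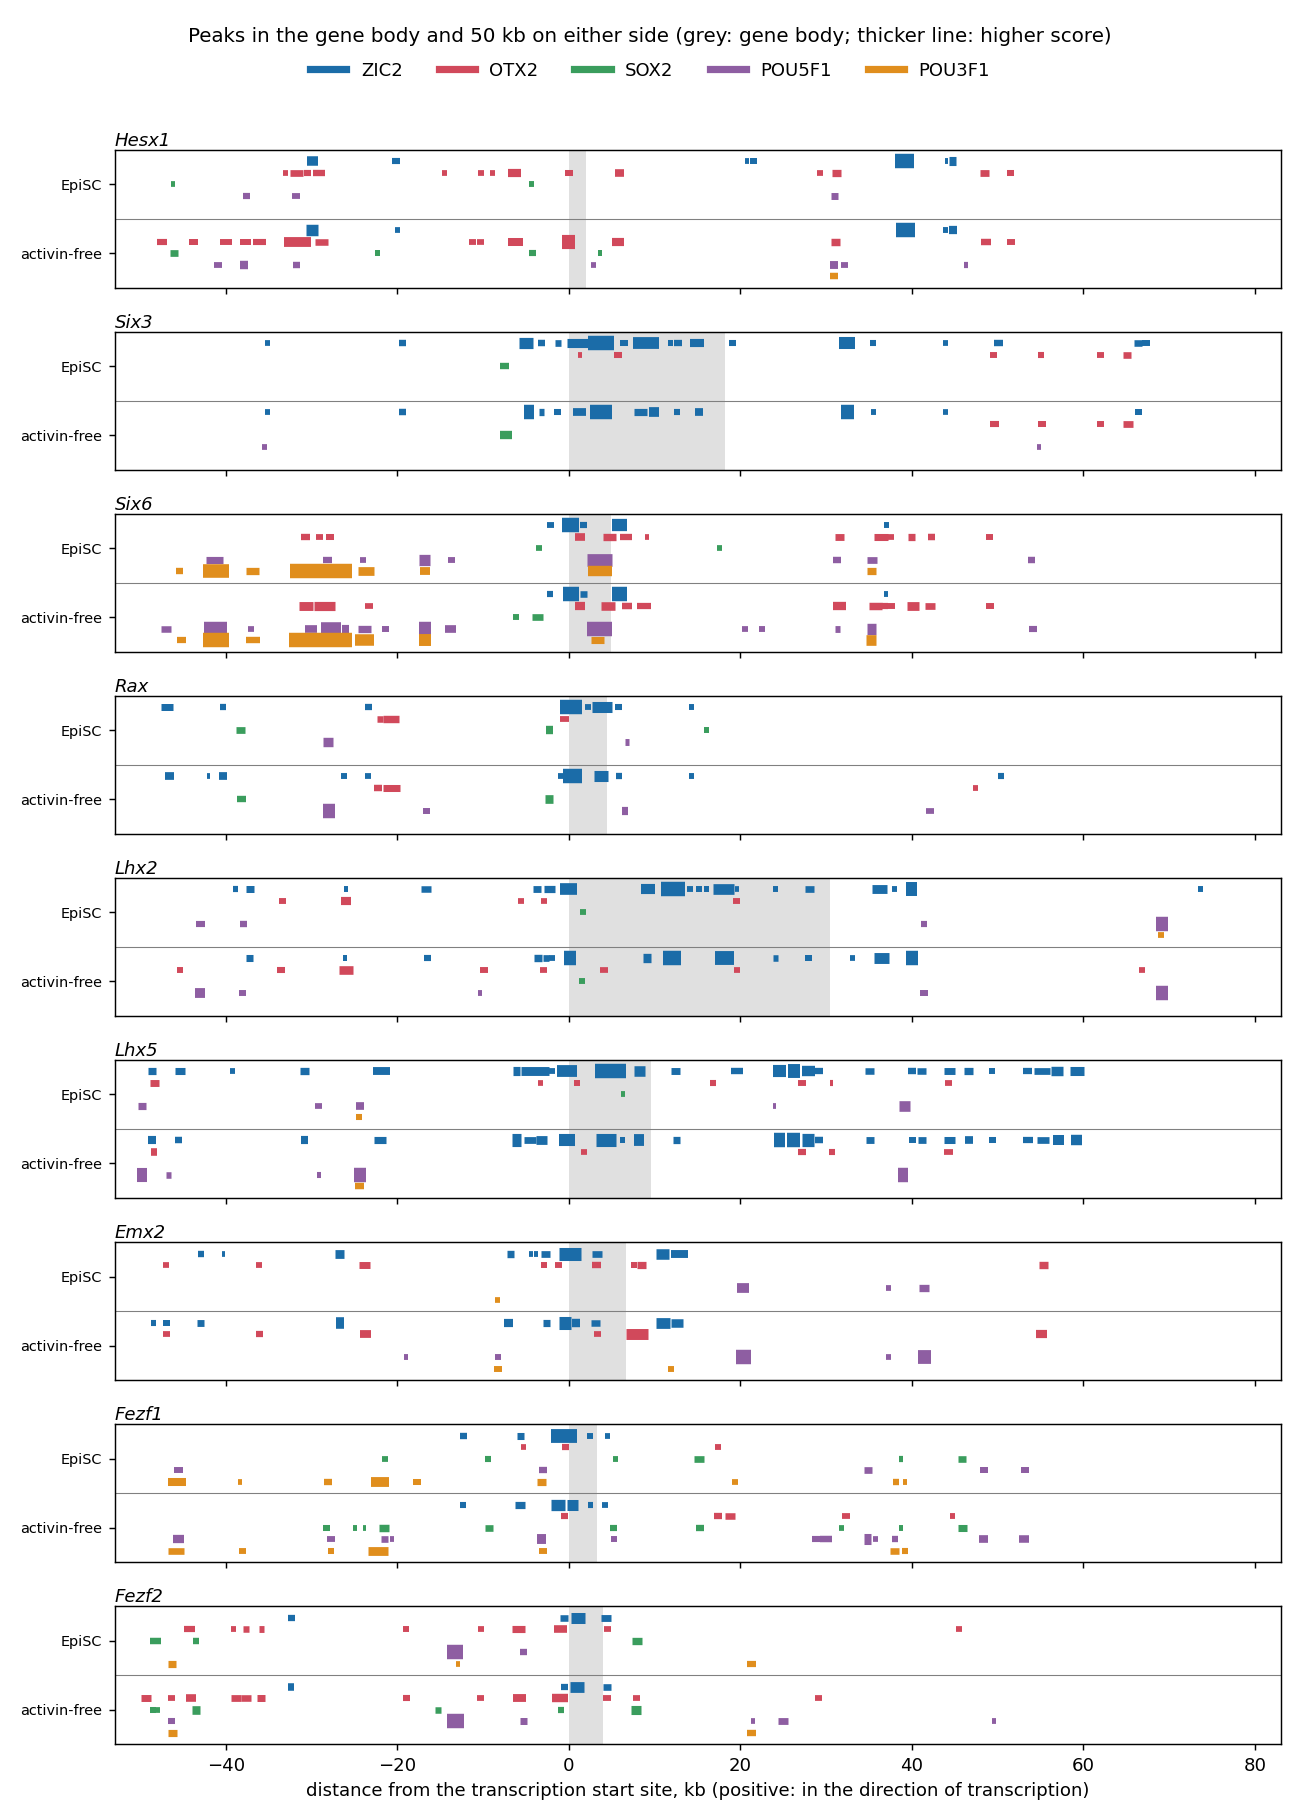
Positions of the peaks of each TF (colors) around the 9 genes in EpiSCs (upper part of each panel) and activin-free culture (lower part). The horizontal axis is the distance from the transcription start site in kb, grey marks the gene body, and thicker lines have higher scores. Starts were overlapped by ZIC2 in 8 of 9 genes in both cultures, compared with 67.6% (EpiSC) and 66.0% (activin-free) of all protein-coding genes. The widest POU3F1 peak, of 7218 bp in EpiSCs, lay upstream of Six6.

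The starts of these genes were occupied by ZIC2, and in EpiSCs mostly by OTX2 as well. A ZIC2 peak overlapped the 1 kb on either side of the start in 8 of 9 genes in both cultures (67.6% and 66.0% of all protein-coding genes), the exception being Hesx1. The scores of the EpiSC peaks with midpoints there ranged from 192.3 at Fezf2 to 1865 at Rax. An OTX2 peak overlapped this region in 7 of 9 genes in EpiSCs (30.2% of all genes), all but Six3 and Lhx2. Without activin, 4 of 9 did so (27.1%), namely Hesx1, Six6, Fezf1 and Fezf2. The OTX2 peaks at the starts of Rax and Lhx5, with EpiSC scores of 65.6 and 92.6, were not listed without activin, nor was the one 1.2 kb upstream of Emx2, with a score of 77.7. These were low-scoring peaks, since the median score of the whole EpiSC OTX2 list was 99.2. No SOX2 peak was at a start in EpiSCs (7.21% of all genes), and 1 was without activin (11.9%), at Fezf2, with a score of 131.5. POU5F1 and POU3F1 peaks were at the start of none of the 9 genes in either culture, compared with 4.33% and 5.25% of all genes in EpiSCs and 9.04% and 6.66% without activin.

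The promoter of Hesx1 carried OTX2 without ZIC2 and gave the most unequal OTX2 scores of the 2 cultures. The peak was 897 bp wide with a score of 99.3 in EpiSCs (chr14:27813130-27814026) and 1409 bp wide with a score of 1449 without activin (chr14:27812792-27814200). The activin-free score was 14.6 times the EpiSC score, a ratio higher than that of 99.8% of the 80514 OTX2 peaks found in both cultures, of which 136 had a ratio at least as high. The activin-free peak scored higher than 99.7% of its list and was the highest OTX2 peak around the 9 genes, whereas the EpiSC peak scored higher than 50.1%. It was also 1 peak in each culture, unlike the next highest ratios. Those of 13.2, 9.58 and 9.31, in the windows of Hesx1, Six6 and Emx2, arose where an activin-free peak of 3196, 2498 or 2544 bp overlapped more than 1 EpiSC peak. There is 1 library per culture, so whether another pair of libraries would give this difference is not known.

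The overlap (by at least 1 bp) of ZIC2 and OTX2 peaks at these genes stood above that of the lists when all peaks were counted, but not among high-scoring EpiSC peaks. With all peaks in EpiSCs, 27 of 106 ZIC2 peaks (25.5%, interval 18.1 to 34.5%) overlapped an OTX2 peak, against 14.8% of the list, and 27 of 70 OTX2 peaks (38.6%, 28.0 to 50.3%) overlapped a ZIC2 peak, against 17.8%. Without activin the shares were 19.4% (12.8 to 28.3%) against 12.7%, and 24.7% (16.2 to 35.6%) against 12.0%. Genes differed in this respect. At Six6, 4 of 5 ZIC2 peaks overlapped OTX2 in both cultures, whereas at Six3 3 of 19 did in EpiSCs and none of 15 did without activin. At a score of at least 100, the share of ZIC2 peaks that overlapped OTX2 was 11.2% (6.03 to 20.0%) in EpiSCs, against 10.1% of the list, and among the 50000 highest scores it was 10.2% (4.44 to 21.8%), against 11.9%. Where at least 50% of both peaks had to overlap, it was 6.60% (3.24 to 13%), against 4.61%. In the activin-free culture the same 3 limits gave 12.8% against 9.30%, 10.9% against 8.82%, and 7.14% against 3.34%.

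POU5F1 and POU3F1 overlapped less often here than over the genome in 1 direction and more often in the other. In EpiSCs, 11 of 33 POU5F1 peaks (33.3%, 19.8 to 50.4%) overlapped POU3F1, against 51.7% of the list, and 11 of 23 POU3F1 peaks (47.8%, 29.2 to 67.0%) overlapped POU5F1, against 28.0%. Without activin the shares were 30.2% (20.2 to 42.4%) against 46.3%, and 81.0% (60 to 92.3%) against 54.6%. Of the 11 EpiSC POU5F1 peaks, 6 were at Six6. OTX2 peaks overlapped POU5F1 in 10.0% (4.93 to 19.2%) of cases in EpiSCs and 19.2% (11.8 to 29.7%) without activin, against 4.90% and 11.9% of the lists. Seen from POU5F1, 21.2% (10.7 to 37.8%) and 22.2% (13.7 to 33.9%) of peaks overlapped OTX2, against 7.86% and 10.7%. In EpiSCs these OTX2 and POU5F1 overlaps lay only at Six6, Hesx1 and Fezf2, and most were at Six6. The limits of score, list length and shared length were not applied to the pairs of this paragraph.

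When overlapping peaks of all TFs were merged into sites, 3 of 195 EpiSC sites had 3 or more TFs (1.54%, 0.525 to 4.42%), compared with 2.74% of all sites. All 3 were at Six6. They joined peaks over 3146 to 7218 bp, and when midpoints had to lie within 500 bp of each other none was left in EpiSCs, and 2 were left of the 10 activin-free sites. One site, chr12:74043067-74048324, ran from the last exon to beyond the gene end and joined ZIC2 (score 1137), OTX2 (315.9 and 147.6), POU5F1 (1215) and POU3F1 (828.1). The corresponding activin-free peaks scored 1531 for ZIC2, 526.2 and 178 for OTX2, 3100 for POU5F1 and 280.7 for POU3F1. Thus the POU5F1 score was higher and the POU3F1 score lower than in EpiSCs at the same site. A site of 7218 bp 29 kb upstream (chr12:74008437-74015654) joined OTX2 and POU5F1 with the broad POU3F1 peak, and a site 36 kb downstream joined ZIC2, OTX2, POU5F1 and POU3F1. Without activin, 10 of 215 sites had 3 or more TFs (4.65%, 2.55 to 8.35%), compared with 5.05% of all sites. There were 4 at Six6, and 2 each at Hesx1, Fezf1 and Fezf2. The 2 at Fezf1 joined SOX2, POU5F1 and POU3F1, and the higher of them, 22 kb upstream, had its highest score, 564.9, for POU3F1. One at Fezf2 joined ZIC2, OTX2 and SOX2 around the start.

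Most peaks around the 9 genes were listed in both cultures. Among EpiSC peaks, 80.2% (71.6 to 86.7%) of ZIC2, 80% (69.2 to 87.7%) of OTX2, 84.2% (62.4 to 94.5%) of SOX2, 97.0% (84.7 to 99.5%) of POU5F1 and 82.6% (62.9 to 93.0%) of POU3F1 peaks overlapped an activin-free peak of the same TF. The shares over the whole lists were 78.9%, 78.1%, 77.6%, 98.3% and 82.6%. Conversely, 93.9% (87.3 to 97.2%), 72.6% (61.4 to 81.5%), 65.4% (46.2 to 80.6%), 50.8% (38.8 to 62.7%) and 90.5% (71.1 to 97.3%) of the activin-free peaks, in the same order, overlapped an EpiSC peak, against 91.2%, 67.5%, 55.9%, 47.1% and 86.8% of the lists. Every whole-list share thus lay within the interval for the 9 genes. The low share of activin-free POU5F1 peaks went together with the greater length of that list. With the 50000 highest scores of both POU5F1 lists it was 88.5% (71.0 to 96.0%) near the 9 genes and 81.5% over the list.

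**Figure D3:**
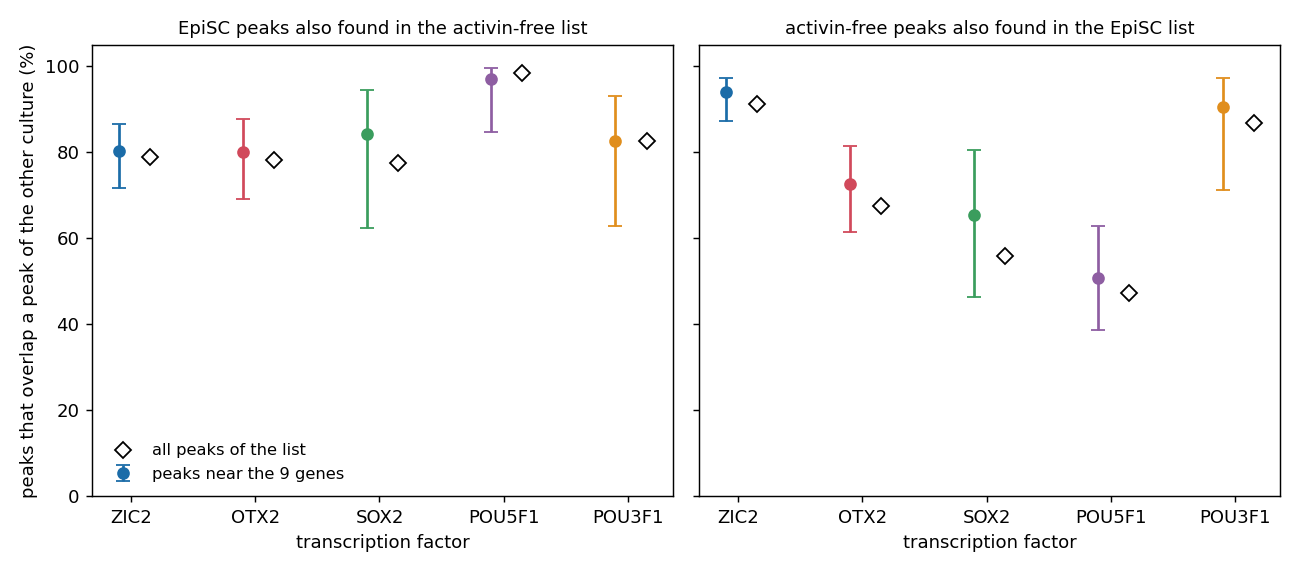
Share of peaks that overlap a peak of the same TF in the other culture, for the peaks near the 9 genes (filled circles, bars are 95% Wilson intervals for counting error) and for all peaks of the list (open diamonds). Every diamond lies within the bar beside it, from 97.0% and 98.3% for EpiSC POU5F1 peaks to 50.8% and 47.1% for activin-free POU5F1 peaks, which became 88.5% and 81.5% with the 50000 highest scores of both lists.

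Peaks listed in 1 culture had low scores. The median score of EpiSC ZIC2 peaks was 271.2 for those shared with the activin-free list and 85.1 for the others, and the corresponding values for activin-free POU5F1 peaks were 616.9 and 79.3. The highest-scoring peak found in 1 culture was an activin-free POU5F1 peak 26 kb upstream of Six6, with a score of 454.2, and it lay within the broad POU3F1 peak described above. The highest OTX2 peak found in 1 culture was an activin-free one 49 kb upstream of Fezf2, with a score of 256.3, which overlapped a SOX2 peak. The highest found in EpiSCs alone was a ZIC2 peak of score 164.1 in the Six3 window, 50 kb downstream of the start. By gene, the share of activin-free peaks also listed in EpiSCs was lowest at Hesx1 (19 of 32, 59.4%) and Fezf1 (26 of 41, 63.4%) and highest at Lhx5 (35 of 37, 94.6%) and Six3 (20 of 22, 90.9%). Over all 5 activin-free lists together it was 69.3%, from 47.1% for POU5F1 to 91.2% for ZIC2. The genes differ in their mix of TFs, and the part of that mix in these shares was not tested. At Fezf1, 8 of the 15 unshared peaks were of POU5F1, and at Hesx1, 6 of 13 were of OTX2.

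The scores of shared peaks followed those of their lists. The median ratio of the activin-free to the EpiSC score was 1.07 for 85 ZIC2 peaks, 1.26 for 56 OTX2 peaks, 1.65 for 16 SOX2 peaks, 3.74 for 32 POU5F1 peaks and 1.21 for 19 POU3F1 peaks. The list medians were 1.08, 1.34, 1.35, 3.83 and 1.12. The ratio of POU5F1 went together with the number of peaks in its lists, which was 126908 without activin and 62457 in EpiSCs, and when every list was limited to its 50000 highest scores, the 9 windows held 28 EpiSC and 26 activin-free POU5F1 peaks. Depth, transfection and culture cannot be told apart as sources of such a shift. Single peaks went against their list. A POU3F1 peak 3.2 kb upstream of Fezf1 scored 294.7 in EpiSCs and 79.7 without activin, a ratio of 0.27, and 0.714% of shared POU3F1 peaks had a lower one. The POU5F1 peak that overlapped it scored 148.9 in EpiSCs and 745.6 without activin. The lowest ratio of all, 0.222, belonged to a ZIC2 peak 2.3 kb upstream of Lhx2 that scored 297 in EpiSCs and overlapped 2 activin-free peaks, of scores 66.0 and 214, so it reflects how the peak was divided as well as its score. At Emx2, an OTX2 peak in an intron scored 159.1 and 53.5, whereas the OTX2 peaks 7.5 and 8.5 kb from the start, 98.6 and 300.7 in EpiSCs, were covered by 1 activin-free peak of score 918.

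**Figure D4:**
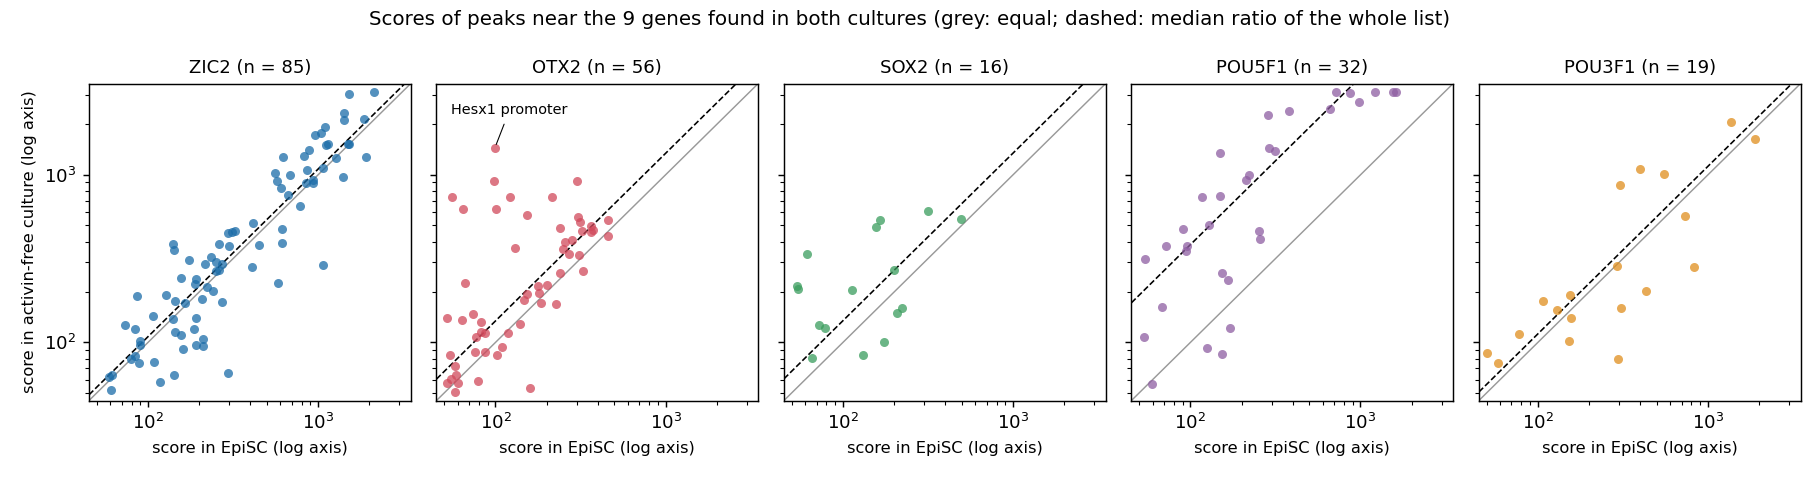
Score of each peak near the 9 genes in EpiSCs (horizontal, log axis) and of the activin-free peak that overlaps it most (vertical, log axis), by TF. The grey line marks equal scores and the dashed line the median ratio of the whole list. The OTX2 peak at the Hesx1 promoter lies farthest above its dashed line, at 99.3 and 1449.

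The sequence at the midpoints was searched for binding letters on both strands, within 100 bp to either side. At SOX2 peaks near the 9 genes, 89.5% in EpiSCs and 92.3% without activin held one of ACAAAG and ACAATG and ACAAAA and ACAATA, compared with 85.8% and 85.0% of the lists and 56.6% and 56.4% of windows centered 1000 bp away. The OTX core GATTA, which GGATTA contains, occurred at 42.9% and 49.3% of OTX2 peaks near the genes, 49.0% and 49.5% of the lists, and 25.1% and 25.8% of neighboring windows. GGATTA alone occurred at 17.1% and 21.9%, against 23.5% and 21.7% of the lists. CCTGCTG occurred at 23.6% and 22.4% of ZIC2 peaks, against 19.0% and 20.9% of the lists and 6.32% and 6.41% of neighboring windows. For ZIC2, OTX2 and SOX2 the values near the 9 genes were thus close to those of the lists.

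The POU-factor peaks near the 9 genes stood further from their lists. The lists include peaks far from genes, and the letters at POU-factor peaks near other genes were not counted. Six6 and Fezf1 held 8 and 9 of the 23 EpiSC POU3F1 peaks. The octamer (ATGCAAAT or ATGCATAT) occurred at 36.4% of EpiSC POU5F1 peaks (12 of 33) and 34.8% of EpiSC POU3F1 peaks (8 of 23), compared with 18.5% and 8.81% of the lists and 3.26% and 3.56% of neighboring windows. Without activin it occurred at 23.8% of POU5F1 peaks (15 of 63) and 33.3% of POU3F1 peaks (7 of 21), compared with 13.5% and 9.31% of the lists. Alternating purine-pyrimidine stretches of 20 bp or more, as in the Lhx2 and Fezf2 sequences, occurred at 57.6% of EpiSC POU5F1 peaks (19 of 33), compared with 29.6% of the list and 4.38% of neighboring windows. Without activin, 22 of 63 POU5F1 peaks (34.9%) had such a stretch, against 21.4% of the list. The letters overlap, because ATGCATAT itself alternates. The EpiSC peaks with a stretch were 5 of 5 at Lhx5, 3 of 9 at Six6, 3 of 5 at Fezf1, and 2 each at Rax, Lhx2, Emx2 and Fezf2, while none of the 3 at Hesx1 had one. Their median score was 251.6, and that of the other 14 was 138.7. The order was the opposite at Emx2 (187.8 at stretches, 721.4 elsewhere) and at Fezf1 (95.5 and 121.3). This rests on few peaks, of which 2 of 3 at Emx2 and 3 of 5 at Fezf1 were at stretches. Without activin the medians were 1391 and 80.9 at Emx2, and 654 and 150.6 at Fezf1, so neither was reversed there. Over the 9 genes they were 698.4 and 130.6, and POU5F1 peaks reached a score of 3100 at 4 genes, Six6, Lhx2, Emx2 and Fezf2. At Lhx2 and Fezf2 the printed stretches gave EpiSC scores of 1620 and 1549 for POU5F1, but of 63.5 and 51.8 for the POU3F1 peaks over them, and no POU3F1 peak was listed there without activin. How the reads were placed in such repeats was not tested.

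**Figure D5:**
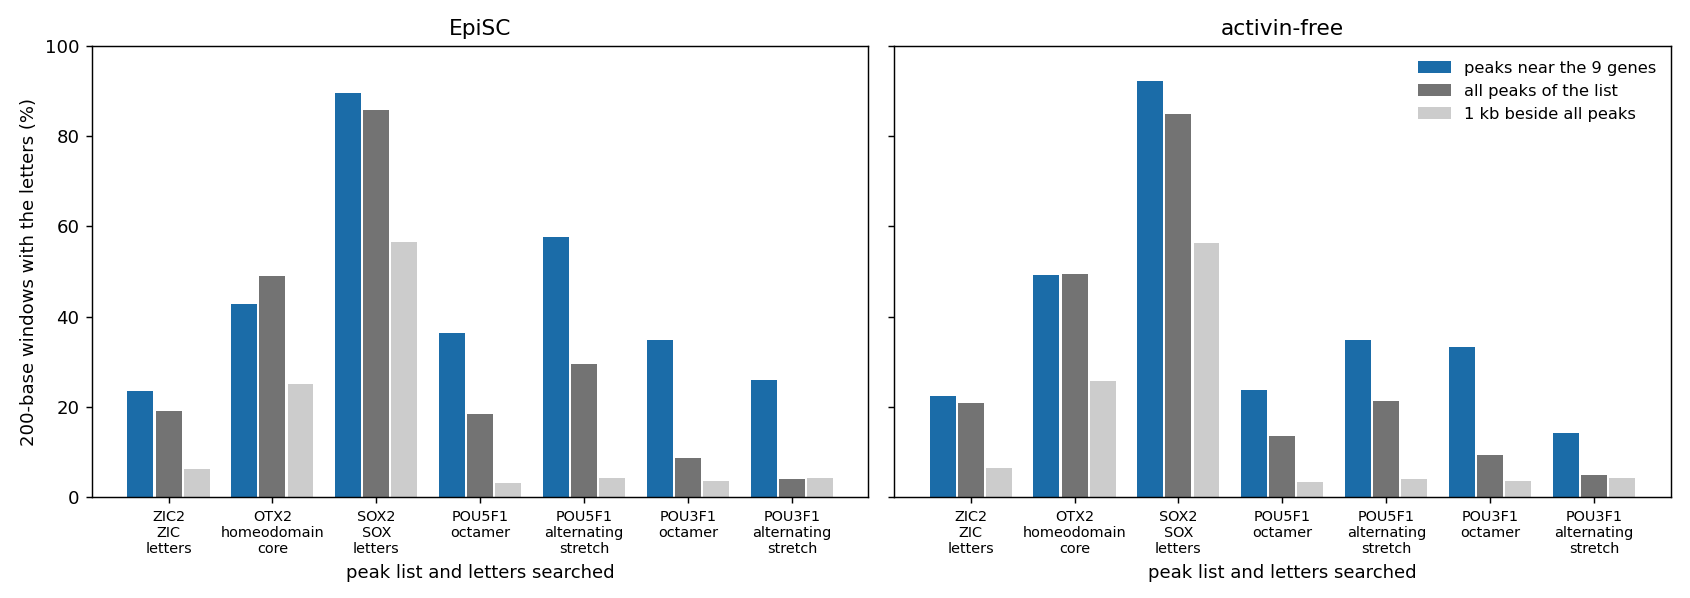
Share of 200-base windows that hold the letters named on the horizontal axis, at peaks near the 9 genes (blue), at all peaks of the list (dark grey) and in windows centered 1000 bp away (light grey), in each culture. The blue bars stand above the dark grey ones for the POU5F1 and POU3F1 lists, as in the 57.6% and 29.6% for alternating stretches at EpiSC POU5F1 peaks.

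Other forebrain and eye regulators were counted in the same way, namely Pax6, Otx1, Otx2, Vax1, Vax2, Nkx2-1, Nr2e1, Emx1, Sp8 and Dmrta2. In EpiSCs, 10 of 10 had a ZIC2 peak in the window (93.1% of all genes) and 10 an OTX2 peak (93.3%). SOX2 peaks were found at 9 (75.0%), POU5F1 peaks at 9 (77.3%) and POU3F1 peaks at 7 (47.8%). The median numbers of peaks were 10.5, 8, 4, 2 and 1.5, beside 8, 7, 2, 3 and 1 for the 9 genes. Without activin, the medians were 9.5, 8.5, 4, 4.5 and 1, beside 11, 6, 2, 5 and 1. Emx1, the paralog of Emx2, had 30 ZIC2 peaks in each culture and no SOX2 or POU3F1 peak in either. Vax2, an eye patterning gene, had 30 ZIC2 peaks in EpiSCs and 27 without activin, whereas Sp8 had 16 OTX2 and 13 POU3F1 peaks in EpiSCs. OTX2 overlapped the start of 3 of 10 of these genes in EpiSCs and 2 of 10 without activin, compared with 7 and 4 of the 9. The shares over all protein-coding genes were 30.2% and 27.1%. Otx2 was carried on a vector, so its OTX2 peaks may include vector reads.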

How the data were processed

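ChIP-seq peaks of ZIC2, OTX2, SOX2, POU5F1 and POU3F1 in EpiSC and activin-free cultures were analysed, 1 library for each TF and culture. The input library was not analysed here. Per the study's methods, the authors used Bowtie2 for alignment to mm9 and MACS1.4 for peak calling against the input. Only the band width departed from the defaults. In the deposited files a peak is an interval with a score, -10 log10 of its MACS p-value. They hold no reads, so depth and its precision are unknown, and no peak was called again. A longer list may reflect more reads as well as more binding.

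Starts were changed to count from 1, and 1416 peaks on other sequences than the autosomes, X and Y count in list totals only. A peak was assigned to a gene if its midpoint lay in the gene body or within 50 kb of it (GENCODE vM1). The 1 peak that ended beyond its chromosome was kept. Overlap meant at least 1 shared bp, and a shared peak was paired with the peak that it overlapped most. No test was made. The background is all 22367 protein-coding genes or all peaks. For each gene, the EpiSC site with most TFs was described, ties being decided by summed score, together with the highest-scoring peak of each list. GATTA and alternating stretches were added to the letters searched after the data had been examined. Some genes of the list of other regulators are not reported here. The genes and lists were chosen with earlier results of these data known. Alternatives were score and list-length limits, other windows and other rules of overlap. The overlap, site and alternating-stretch counts were tested on simulated data. Python 3.11.15, numpy 2.4.6, scipy 1.17.1 and matplotlib 3.10.9 were used.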

Additional observations from a re-analysis of the deposited data

How the results depend on the processing

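No paired analysis was possible because each TF has 1 library per culture. Of 110 alternative values, 81 stayed close to the reported ones and 29 moved. At a score of at least 100, peaks near the 9 genes numbered 36 (OTX2) and 10 (SOX2, at 4 genes) in EpiSCs, and 44 (OTX2), 17 (SOX2) and 40 (POU5F1) without activin. Among the 50000 highest-scoring peaks of each list they numbered 49 (ZIC2), 35 (OTX2) and 11 (POU3F1, at 3 genes) in EpiSCs, and 55 (ZIC2), 36 (OTX2), 26 (POU5F1) and 8 (POU3F1, at 3 genes) without activin. With these 50000, the EpiSC peaks shared with the activin-free list became 93.9% for ZIC2 and 82.1% for POU5F1, and the activin-free peaks shared with EpiSCs became 88.5% for POU5F1 and 100% for POU3F1. At a score of at least 100, 93.8% of EpiSC POU3F1 peaks were shared. With overlap of at least 50% of both peaks, 67.1% of EpiSC OTX2 peaks and 82.7% of activin-free ZIC2 peaks were shared. ZIC2 peaks that overlapped OTX2 became 6.60% in EpiSCs and 7.14% without activin under that rule, 11.2% in EpiSCs at a score of at least 100, and 10.2% and 10.9% among the 50000 highest. Sites with 3 or more TFs fell to 0 in EpiSCs and 2 without activin when midpoints had to lie within 500 bp. Fewer peaks are left by construction in limited lists, and the cause of the other shifts was not tested. Unknown depth limits every count of low-scoring peaks.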
